A study of Mus musculus with 6 samples.

Results

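ATP-binding cassette (ABC) transporters other than the 4 bile acid and conjugate exporters Abcb11, Abcc2, Abcc3 and Abcc4 were measured in mouse liver. The members are all genes whose name on the array starts with Abca to Abcg followed by a number, without those 4. They came to 45 of the 27666 genes on the array, on 87 probes of 41174. The livers came from male C57BL/6J mice, an inbred laboratory strain, that were 8 weeks old when they were allocated to a diet and 20 weeks old after 12 weeks on it. Both diets were built on amino acids in place of protein and carried added iron. In the control diet folic acid stood at 2 mg/kg, methionine at 0.4% and choline bitartrate at 0.3%. The CFD diet held 0.17% methionine and neither choline nor folic acid. The CFD diet thus differed from the control diet in methionine as well as in choline and folate. There were 3 arrays per diet, each of 1 colour, and nothing in the labels says that the arrays of a diet are different mice, so the p-values speak only of the spread among these arrays, part of which may be technical.

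ABC transporters use ATP to move lipids, sterols, peptides, heme, drugs and conjugates across membranes. In the liver some of them load bile with phospholipid and cholesterol, some pass lipid to lipoproteins, and others work in mitochondria, lysosomes and peroxisomes. Proteins of the E and F subfamilies share the ATP-binding domains but span no membrane, and act on ribosomes.

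Upstream sequences are shown for the Abca5 gene, a member called higher in every alternative, for the neighbours Abcb1a and Abcb1b, whose probes gave different values, and for Abcg5 and Abcg8, which are transcribed away from each other from start sites close together. The sequences and start sites are those of RefSeq on GRCm38.p6, and each is printed 5′ to 3′. Capitals mark the GC box GGGCGG on either strand in the sequences of Abca5 and of the Abcb1 pair. In the stretch between the start sites of Abcg5 and Abcg8 capitals mark GATAA on either strand. This motif was chosen after the values and the sequences were seen, so its presence there is a description only.
Abca5, chr11:110337724-110337966, minus strand: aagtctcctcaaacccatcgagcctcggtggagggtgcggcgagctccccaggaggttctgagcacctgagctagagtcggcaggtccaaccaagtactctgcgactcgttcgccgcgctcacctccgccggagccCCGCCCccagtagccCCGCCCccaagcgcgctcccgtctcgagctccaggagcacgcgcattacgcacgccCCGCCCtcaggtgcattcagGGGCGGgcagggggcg
Abcb1a, chr5:8566841-8567090, plus strand: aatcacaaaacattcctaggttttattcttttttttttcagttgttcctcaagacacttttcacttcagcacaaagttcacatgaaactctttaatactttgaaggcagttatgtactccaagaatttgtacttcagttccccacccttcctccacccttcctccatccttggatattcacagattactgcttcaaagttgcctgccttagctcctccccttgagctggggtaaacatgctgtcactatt
Abcb1b, chr5:8797897-8798146, plus strand: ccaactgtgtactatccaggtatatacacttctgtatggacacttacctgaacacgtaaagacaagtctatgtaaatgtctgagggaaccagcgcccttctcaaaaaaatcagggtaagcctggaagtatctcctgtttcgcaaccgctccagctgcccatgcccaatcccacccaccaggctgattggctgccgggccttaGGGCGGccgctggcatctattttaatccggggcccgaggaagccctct
Abcg5 and Abcg8, chr17:84683012-84683120, plus strand: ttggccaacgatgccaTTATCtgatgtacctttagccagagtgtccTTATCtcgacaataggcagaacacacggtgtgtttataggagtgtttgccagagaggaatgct

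The Abca5 stretch of 243 bases held 4 GC boxes and was 69.5% G or C. The 250 bases before the Abcb1a start held none and were 40.4% G or C, against 1 GC box and 52.8% before the Abcb1b start. Between the Abcg5 and Abcg8 starts lay 109 bases with 2 GATAA motifs. Of the 45 genes, 34 had at least 1 window in the RefSeq table, with 40 windows in all, each running from 250 bases before a start to 50 after it. The GC box lay in 50% of these windows and in 35.7% of all 32851 windows. The 250 bases before the start had a median of 58.4% G or C in the members' windows and 52.4% in all windows. The part of this difference in the GC box shares was not tested. The E-box CACGTG lay in 12.5% of the members' windows and 7.15% of all, and the antioxidant response motif TGACNNNGC in 10% and 12.4%. The liver X receptor motif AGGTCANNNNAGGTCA was in none of the 40 windows and in 0.0152% of all windows, and its looser form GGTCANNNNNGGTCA in none and 0.0761%. The GATAA motif lay in 20% of the members' windows and 25.4% of all. Each motif was searched on both strands, and any match of the full liver X receptor motif is also a match of its looser form. A match describes the letters of a window and not a bound site.

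Of the 45 genes, 34 had a probe that was well above background on every array of 1 diet or of both, and were tested. All but Abcb1a of these passed on both diets, and Abcb1a passed only through the CFD diet, being above background on 1 of 3 control arrays. The 11 untested genes were Abca4, Abca13, Abca14, Abca15, Abca16, Abca17, Abcb5, Abcc8, Abcc10, Abcc12 and Abcg4. Levels are given as log2 of the scanner's processed signal minus the log2 75th percentile of that array, so a level of 0 is that percentile, and levels of different probes are not compared. A gene was called where the adjusted p-value of limma, a linear model fitted here across all 15927 tested genes, was below 0.05, and every fold change is CFD diet against control. Errors after a ± sign on a log2 fold change are standard errors from that fit with 3 arrays per diet.

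Across the array the diets differed widely, with 23.7% of tested genes called higher and 27.3% called lower on the CFD diet. Levels on the control arrays correlated with each other across genes at 0.990 to 0.993, those on the CFD diet arrays at 0.982 to 0.990, and those of different diets at 0.913 to 0.951. The arrays had 21719 to 29095 probes well above background, and 3 arrays per diet limit the precision of every value. Defining hepatocyte genes were present on all arrays. Markers of cell types also moved with the diet. Hepatocyte markers had 7 of 11 tested genes lower, and their summed signal (each gene's signal over the array's 75th percentile, added over the list) was 2460 to 2920 in controls and 1490 to 2320 on the CFD diet. Macrophage markers had 12 of 13 higher, with sums of 181 to 253 and 459 to 614, and stellate cell and pericyte markers 9 of 10 higher, with sums of 17.1 to 18.2 and 45.4 to 57.3. Cholangiocyte markers had 8 of 9 higher, with sums of 6.36 to 9.54 and 89.2 to 124. Most of these sums was Spp1, at mean log2 levels of 2.71 in controls and 6.70 on the CFD diet, so they mainly follow that gene. Cftr and Cldn4 among the cholangiocyte markers were above background on no control array and so were tested only through the CFD diet. Endothelial markers had 4 of 9 lower and 1 higher, with sums of 40.7 to 44.8 and 27 to 34.3. Lymphocyte markers had 2 of 7 lower, with sums of 0.835 to 1.05 and 0.662 to 0.93, and erythroid markers 2 of 3 lower, with sums of 146 to 208 and 79.1 to 144. All such sums are weighted to the brightest probes of a list, as to Hba-a1, itself not called, among the erythroid markers. In whole liver RNA, fewer cells of a type and less RNA per cell cannot be told apart, and the part of these cell types in the ABC values was not tested.

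Among the 34 tested ABC genes, 9 were called higher and 15 lower on the CFD diet, or 26.5% and 44.1%, beside 23.7% and 27.3% of all tested genes. Called either way were 24 of the 34, or 70.6%, where all tested genes had 51.1%. Fold changes of at least 2 were found in 6 called higher and 9 called lower, or 17.6% and 26.5%, where all tested genes had 14.8% and 9.79%. Abcb1a, which passed the filter only through the CFD diet, was 1 of the genes called higher. Among genes that passed on both diets, 8 of 33 ABC genes were higher and 15 lower, beside 2757 and 4211 of 14259 over the array. Called and at least 2-fold among these were 5 ABC genes higher and 9 lower, beside 1422 and 1449. The median log2 fold change was -0.23 for the ABC genes and -0.11 for all tested genes. All 3 CFD diet arrays lay above all 3 control arrays for 9 ABC genes and below them for 18, which is 26.5% and 52.9%, with 28.2% and 34.5% over the array. Abca1, Abcf1 and Abcf2 lay below without overlap but did not pass the test. Each slide carried 1 control and 1 CFD diet array, and the sign of the difference was the same on all 3 slides for 32 of the 34 genes and for 11729 of all 15927 tested genes. The number called lower was 9 where no filter on dim probes was applied and all 45 genes were tested. Over the array that setting gave 2461 lower of 27666 genes, next to 4355 of 15927 with the filter.

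**Figure D1:**
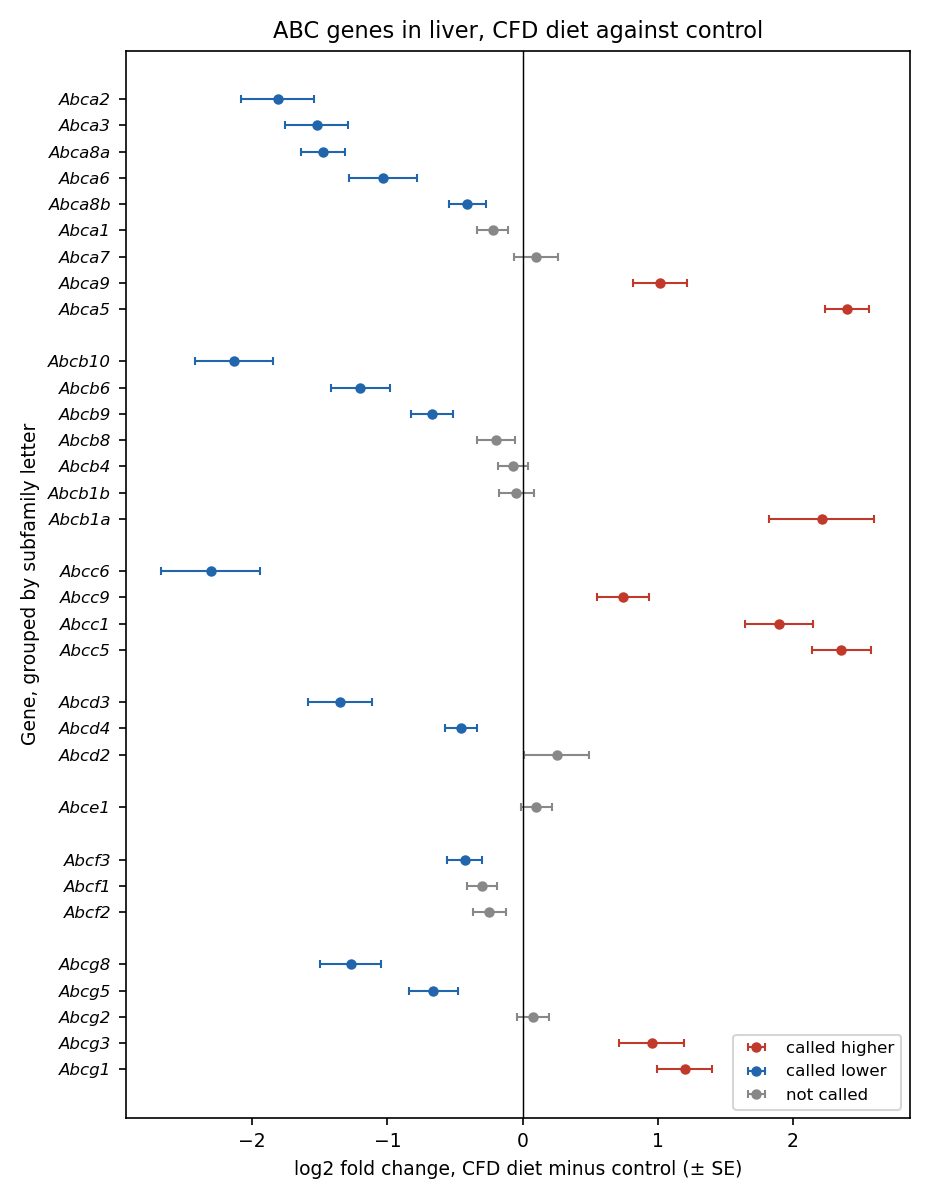
Log2 fold change of 32 of the 34 tested ABC genes, CFD diet minus control, with bars of 1 standard error from the limma fit, grouped by subfamily letter; colours mark genes called higher, lower or not called. Subfamilies A, B, C and G hold genes on both sides of 0, from -2.31 for Abcc6 to 2.40 for Abca5, while the called genes of subfamilies D and F lie below 0.

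The subfamilies differed in their counts. Of the 9 tested Abca genes 2 rose and 5 fell, with a median log2 fold change of -0.41. All 4 tested Abcc members were called, 3 higher and 1 lower, with a median of 1.32. This leaves out Abcc2, Abcc3 and Abcc4, which are not members and had -0.21, -1.16 and 3.11. Of the 5 tested Abcg genes 2 rose and 2 fell, with a median of 0.08. Of the 3 Abcf genes 1 fell, and the single Abce gene was not called. The difference between subfamilies was not tested. For these counts and those of the gene groups below, the shares over all tested genes are 23.7% higher and 27.3% lower.

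Among transporters that export sterols and phospholipids, Abcg1 rose 2.3-fold while the partners Abcg5 and Abcg8 fell, and Abca1, Abca7 and Abcb4 did not pass the test. Of 7 such genes 6 were tested, with 1 higher and 2 lower, and Abcg4 was not tested. Abcg1, which passes cholesterol to high-density lipoprotein and is abundant in macrophages, read -0.20, -0.03 and -0.43 in controls 1 to 3 and 1.18, 0.58 and 1.17 in CFD diet samples 1 to 3. Every CFD diet array was above every control array, with CFD diet 2 the least so. The log2 fold change was 1.20 ± 0.20 (adjusted p = 0.00393), and the macrophage markers given above moved in the same direction.

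Abcg5 and Abcg8 form 1 transporter that secretes cholesterol and plant sterols into bile, and both genes were lower. Abcg8 read 0.96, 1.05 and 1.09 in controls and -0.35, 0.26 and -0.61 on the CFD diet, without overlap, and fell by 1.27 ± 0.23 on the log2 scale (adjusted p = 0.00447). Another Abcg8 probe fell by 1.02. Abcg5 read 5.63, 5.63 and 5.73 in controls and 4.84, 5.38 and 4.78 on the CFD diet, again without overlap. Its log2 fold change was -0.66 ± 0.18 (adjusted p = 0.0217), and within the slides it was -0.79, -0.25 and -0.95, with the CFD diet 2 array closest to its control. The Abcg5 call ended without control 1, 2 or 3 (adjusted p = 0.0538, 0.0533 and 0.073), without CFD diet 1 or 3 (adjusted p = 0.0657 and 0.0725), without the filter on dim probes (adjusted p = 0.0804), and after quantile normalization, which gave -0.23 (adjusted p = 0.115). The stretch between both start sites is the one printed above, and on mm7 the array places the representing probes at chr17:82952711-82952770 for Abcg5 and chr17:82994253-82994312 for Abcg8.

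Abcb4, the canalicular phosphatidylcholine floppase, read 6.97, 7.09 and 7.11 in controls and 6.95, 6.98 and 7.02 on the CFD diet. The groups overlapped, and the log2 fold change was -0.07 ± 0.11 (adjusted p = 0.61), with a range of -0.28 to 0.43 over the 15 alternative settings. Abca1, which lipidates apolipoprotein A-I, read 3.35, 3.20 and 3.21 in controls and 3.03, 3.10 and 2.97 on the CFD diet. Its groups did not overlap, but the difference of -0.22 ± 0.11 did not pass (adjusted p = 0.148). It passed after scaling to the array median, at -0.42 (adjusted p = 0.0451), and was 0.003 after quantile normalization. Abca7, a relative of Abca1, had a log2 fold change of 0.10 ± 0.16 (adjusted p = 0.629), and -0.10 after scaling to the array median.

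Genes that supply or take up the sterols moved by export were counted from a list of 18, all tested. Of these 3 rose and 7 fell, where 23.7% of all tested genes were called higher and 27.3% lower. The largest rise was Soat1, which esterifies cholesterol for storage, at 2.59 ± 0.20 (adjusted p = 0.000216), and the largest fall was Cyp27a1, the sterol 27-hydroxylase, at -2.57 ± 0.45 (adjusted p = 0.00419). The other genes that rose were Npc2 and Lipa, which handle cholesterol in lysosomes, by 0.59 and 0.48. Lcat and Pltp, which remodel plasma lipoproteins, were lower at -1.60 and -1.46. The groups overlapped for Pltp, at 2.40, 1.31 and 2.88 in controls and 0.36, 1.37 and 0.48 on the CFD diet, but not for Lcat. The liver X receptor gene Nr1h3, whose product induces Abca1, Abcg1, Abcg5 and Abcg8, had a log2 fold change of -0.41 (adjusted p = 0.061) and was not called.

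The drug and conjugate pumps changed in both directions. Of 9 genes 6 were tested, and Abcc5, Abcb1a and Abcc1 rose, Abcc6 fell, and Abcg2 and Abcb1b were not called. Abcc5, a pump for cyclic nucleotides and organic anions, read -2.0, -2.20 and -2.32 in controls and 0.19, -0.22 and 0.58 on the CFD diet. All CFD diet arrays were higher, by 2.36 ± 0.22 on the log2 scale or 5.12-fold (adjusted p = 0.000429). Another of its probes, above background on 2 control arrays and so tested only through the CFD diet, rose by 2.74. The remaining probe was not well above background on any control array and was at least 1.56-fold higher. That bound is set against the dimmest signals that count as above background. Abcc1, a pump for glutathione conjugates, read -2.53, -1.85 and -2.33 in controls and -0.16, -0.77 and -0.07 on the CFD diet. Without overlap it rose 3.73-fold, by 1.90 ± 0.25 (adjusted p = 0.00165), and its 3 probes gave 1.90, 1.91 and 2.26.

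Abcc6, which hepatocytes use to release ATP and which limits calcification of soft tissue, fell on the CFD diet. Its levels were 1.69, 1.87 and 2.00 in controls and -1.02, 0.43 and -0.76 on the CFD diet. The groups lay apart, and CFD diet 2 was again the nearest to the controls. The log2 fold change was -2.31 ± 0.37, a 4.94-fold fall (adjusted p = 0.0031), on 1 probe at chr7:42153654-42155902 of mm7, whose start and end lie further apart than a probe is long.

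Abcb1a and Abcb1b encode the mouse P-glycoproteins, which expel lipophilic drugs. Abcb1a was dim, at -4.86, -5.70 and -5.50 in controls and -2.49, -3.90 and -3.03 on the CFD diet, and was above background on 1 control array and on all CFD diet arrays. Normexp background correction, with an offset of 50 that shrinks folds of dim probes, gave a log2 fold change of 0.68. The fitted log2 fold change without it was 2.21 ± 0.39 (adjusted p = 0.00425). Since the probe was tested only because its CFD diet arrays are above background, and most control arrays gave no level above it, this size is a description and not an exact fold. The probe that represents Abcb1b read 2.98, 2.97 and 3.09 in controls and 3.08, 2.80 and 3.02 on the CFD diet, which overlap, with a log2 fold change of -0.04 ± 0.13 (adjusted p = 0.785). Another Abcb1b probe, also above background on all arrays, read -3.07, -2.78 and -3.21 in controls and -1.29, -1.81 and -1.23 on the CFD diet. That probe rose by 1.58 ± 0.20 (adjusted p over all probes = 0.00144), and the mean of both probes was called higher at 0.77 (adjusted p = 0.00651). Whether Abcb1b changed thus depends on the probe, 1 being called higher and the other not called. Both genes are close paralogs, and whether their probes bind each other's transcript was not tested.

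Abcg2, the breast cancer resistance protein, which exports urate and drugs, read 4.98, 5.14 and 4.98 in controls and 5.16, 5.17 and 5.0 on the CFD diet. These ranges overlapped, with a log2 fold change of 0.08 ± 0.12 (adjusted p = 0.603). Only after quantile normalization did it pass, at 0.48 (adjusted p = 0.0314), and after scaling to the array median it lay at -0.13 (adjusted p = 0.5). Of the untested pumps, Abcc10 was above background on 1 array of each diet, Abcc12 on 1 CFD diet array and Abcb5 on none.

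**Figure D2:**
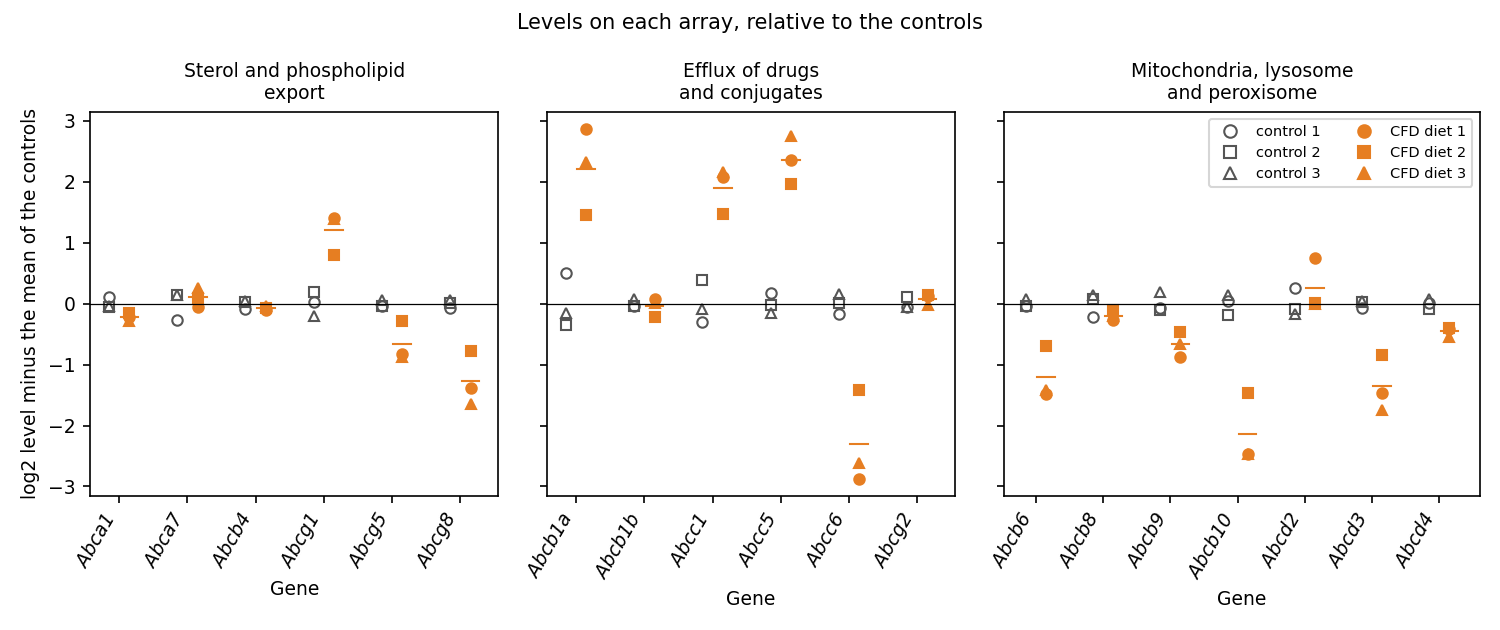
Log2 level on each array minus the mean of the 3 control arrays, for tested genes of sterol and phospholipid export, of drug and conjugate efflux, and of mitochondria, lysosome and peroxisome; open symbols are controls, filled symbols CFD diet, symbol shapes replicates, and bars the CFD diet mean. The CFD diet 2 squares lie nearest the control line in most called genes, and Abcb4, Abcb1b and Abcg2 lie close to it on this scale.

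The CFD diet 2 array was the one nearest the control mean in 23 of the 24 called ABC genes, or 95.8%. Over all called genes with a value on every array it was nearest in 67.3% (5467 of 8127). That array also had the highest hepatocyte marker sum of the CFD diet arrays, at 2323, next to 1489 and 1526. Without it, the counts of called ABC genes were 9 higher and 14 lower.

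The Abca genes outside sterol export, which include several lipid transporters of unsettled substrate, split by gene. Of 13 genes 7 were tested, and all 7 were called, 2 higher and 5 lower. The 6 untested ones were Abca4 and Abca13 to Abca17, of which Abca14 was above background on 1 control array and the others on none. Abca5, which lies in lysosomal and endosomal membranes, read -1.24, -1.44 and -1.25 in controls and 1.20, 0.79 and 1.27 on the CFD diet. The CFD diet arrays were all higher, by 2.40 ± 0.16 or 5.27-fold (adjusted p = 0.000145). This and the rise of Abcc5 differ by less than their standard errors, and without control 1 Abcc5 was at 2.443 and Abca5 at 2.433. Its 3 other tested probes gave 2.91, 3.04 and 3.22, and the first and the second of them, above background on no control array, were at least 4.18-fold and 3.35-fold higher. The representing probe lies at chr11:110378690-110378749 of mm7. Abca9, also higher, read -3.20, -3.02 and -3.03 in controls and -1.74, -2.47 and -2.0 on the CFD diet, a log2 fold change of 1.02 ± 0.20 (adjusted p = 0.00648). After normexp background correction it was 0.61.

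Abca2, Abca3, Abca6, Abca8a and Abca8b fell. Abca2, an endolysosomal lipid transporter, read 0.45, 0.70 and 0.70 in controls and -1.60, -0.58 and -1.41 on the CFD diet, and was 3.51-fold lower at -1.81 ± 0.27 (adjusted p = 0.00246). Abca3, which loads surfactant lipid in the lung, read 1.12, 0.89 and 1.06 against -0.50, -0.04 and -0.96, and was 2.88-fold lower at -1.52 ± 0.24 (adjusted p = 0.0028). In both genes the groups lay apart and every tested probe was called lower. Abca8a read 3.63, 3.82 and 3.68 in controls and 2.11, 2.54 and 2.06 on the CFD diet, a 2.78-fold fall (log2 fold change -1.47 ± 0.16, adjusted p = 0.000819). Abca6 read 2.62, 2.73 and 2.77 in controls and 1.62, 2.21 and 1.19 on the CFD diet, without overlap. Its log2 fold change was -1.03 ± 0.25 (adjusted p = 0.0147) on the representing probe and -2.15 ± 0.31 on another, so that the mean of probes was -1.59, and without the filter on dim probes its adjusted p was 0.0565. Abca8b fell least, by 0.41 ± 0.14 on the log2 scale (adjusted p = 0.0424). Its call ended in 10 of 15 alternatives, among them without control 1, 2 or 3 (adjusted p = 0.0641, 0.127 and 0.108), without CFD diet 2 or 3 (adjusted p = 0.075 and 0.11) and with the slide as a replicate block (adjusted p = 0.0954).

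Members lie side by side in 2 clusters. On chromosome 11 of mm7 the probes lie in the order Abca8b, Abca8a, Abca9, Abca6 and Abca5, and the 14 array spots between the first and the last belong to these genes alone. In that order the log2 fold changes were -0.41, -1.47, 1.02, -1.03 and 2.40, with Abca8b and its neighbour Abca8a both lower and with lower and higher genes alternating from Abca8a on. The 5 genes were all called. On chromosome 5 the order is Abcb1a, Abcb1b and Abcb4, with 6 spots and no other gene between them, and Abcb1b and Abcb4 had values of -0.04 and -0.07, neither called. Abcb1a had 2.21, and 0.68 after normexp correction, on a probe that was above background on 1 of 3 control arrays and was tested only through the CFD diet.

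**Figure D3:**
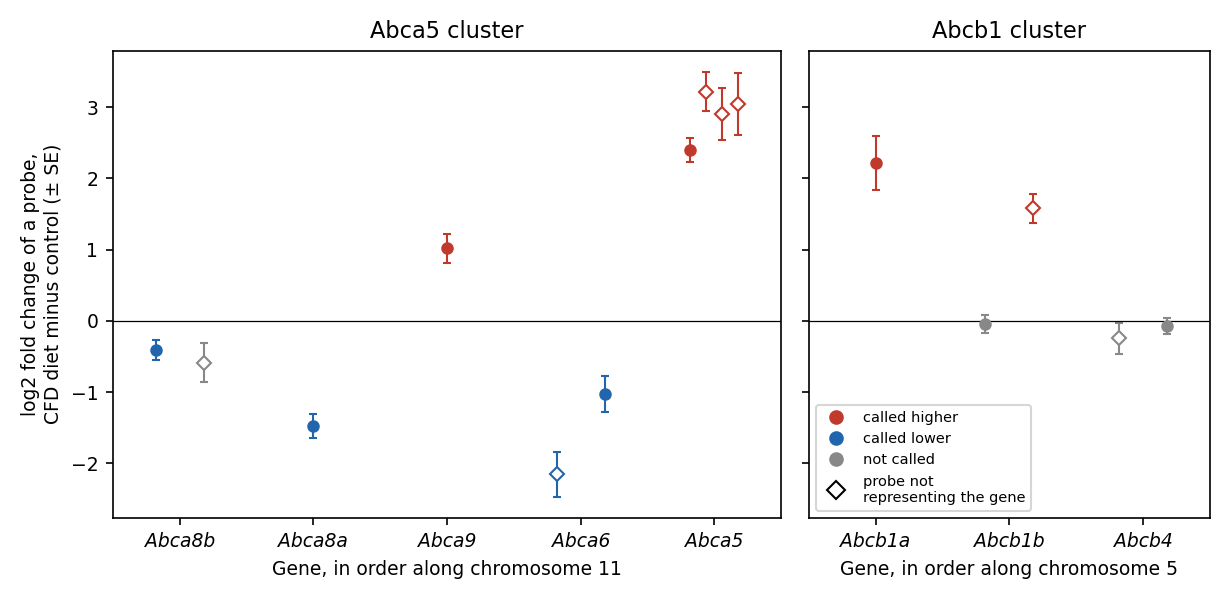
Log2 fold change of every tested probe, CFD diet minus control, with bars of 1 standard error, for the 5 genes of the chromosome 11 cluster and the 3 of the chromosome 5 cluster in their order along the chromosome (position not to scale); filled circles are the probes that represent a gene, open diamonds its other probes, and colours mark the call. The 4 Abca5 probes lie between 2.40 and 3.22 beside 2 Abca6 probes at -1.03 and -2.15, and the 2 Abcb1b probes lie apart.

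Among the Abcb transporters of mitochondria and lysosomes, Abcb10, Abcb6 and Abcb9 fell. Abcb10, a transporter of the inner mitochondrial membrane needed for heme synthesis, read 0.85, 0.61 and 0.95 in controls and -1.67, -0.67 and -1.66 on the CFD diet. The groups lay apart, and the gene was 4.39-fold lower at -2.14 ± 0.29 (adjusted p = 0.00168), with another probe at -1.46. That other probe was above background on 2 CFD diet arrays and was tested only through the controls. Abcb6, linked to porphyrin transport, read 4.07, 4.08 and 4.19 in controls and 2.63, 3.41 and 2.70 on the CFD diet, a 2.3-fold fall (log2 fold change -1.20 ± 0.22, adjusted p = 0.00503). Abcb9, a lysosomal peptide transporter, was lower at -0.67 ± 0.16 (adjusted p = 0.0124), and its call ended without control 3 (adjusted p = 0.0512) and without the filter on dim probes (adjusted p = 0.0551). Abcb8, another mitochondrial transporter, had -0.20 ± 0.14 (adjusted p = 0.276).

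Of 13 listed genes for mitochondrial heme and iron-sulfur synthesis, 9 were lower and the other 4 were not called. Lower calls made up 27.3% of all tested genes. The largest fall was Slc25a37, the mitochondrial iron importer mitoferrin-1, at -1.67 ± 0.26 (adjusted p = 0.0029). Alas1, which starts heme synthesis, was lower at -1.46, and Fech, which inserts the iron, at -0.72. The erythroid markers given above, 2 of 3 lower, moved in the same direction as these genes.

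In subfamily D, whose peroxisomal members import acyl-CoA, Abcd3 and Abcd4 fell and Abcd2 was not called. Abcd3, the peroxisomal membrane protein PMP70, read 7.26, 7.37 and 7.39 in controls and 5.87, 6.50 and 5.60 on the CFD diet. It was lower on every CFD diet array, by 1.35 ± 0.23 on the log2 scale or 2.55-fold (adjusted p = 0.0041), and its other probes gave -1.53 and -1.50. Abcd2, a peroxisomal transporter of very-long-chain acyl-CoA, read -0.60, -0.94 and -1.02 in controls and -0.11, -0.84 and -0.85 on the CFD diet. The ranges overlapped, with a log2 fold change of 0.25 ± 0.24 (adjusted p = 0.402). Another Abcd2 probe, above background on all arrays, read -1.56, -2.69 and -1.90 in controls and -1.10, -1.46 and -1.25 on the CFD diet, without overlap. Its log2 fold change was 0.78 ± 0.29, and it was not called (adjusted p over all probes = 0.0597). Over the alternatives Abcd2 ranged from 0.007 to 0.515 and was called in none, and Abcd3 ranged from -1.61 to -0.92 and was called in each.

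Abcd4, which acts in lysosomal export of cobalamin (vitamin B12), read 0.66, 0.55 and 0.72 in controls and 0.23, 0.25 and 0.09 on the CFD diet. The groups did not overlap, and it was lower by 0.45 ± 0.12 on the log2 scale (adjusted p = 0.0178). The call ended without control 1 or 3 (adjusted p = 0.0584 and 0.0795), without CFD diet 3 (adjusted p = 0.0639), without the filter on dim probes (adjusted p = 0.0808) and with the slide as a replicate block (adjusted p = 0.052). Of 5 listed genes of cobalamin handling 1 rose and 2 fell, beside 23.7% of all tested genes called higher and 27.3% lower. Mtr, the cobalamin-dependent methionine synthase that uses a folate as methyl donor, rose by 0.91 ± 0.18 (adjusted p = 0.00709), and the lowest fitted value was that of Mmachc, which processes cobalamin, at -0.45 ± 0.11 (adjusted p = 0.0148).

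Of 8 listed peroxisomal partners 7 fell, and the other, Pex19, was not called, where 27.3% of all tested genes were called lower. Slc27a2, a very-long-chain acyl-CoA synthetase, had the lowest fitted value at -1.34 ± 0.28 (adjusted p = 0.00753). Hepatocyte markers were also lower, as given above.

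Abcc9, the SUR2 subunit of ATP-sensitive potassium channels in vascular muscle and pericytes, was higher on the CFD diet. It read -1.11, -1.15 and -1.25 in controls and -0.08, -0.79 and -0.41 on the CFD diet, without overlap. The log2 fold change was 0.75 ± 0.19 (adjusted p = 0.0172), and all of its tested probes were called higher. That call ended without control 3 (adjusted p = 0.0604), without CFD diet 3 (adjusted p = 0.0539) and without the filter on dim probes (adjusted p = 0.0669). Kcnj8, the pore subunit that pairs with Abcc9, rose by 0.76 ± 0.16 (adjusted p = 0.0089), as did the stellate cell and pericyte markers given above. The other receptor, Abcc8, was above background on 1 array of each diet, and neither it nor its partner Kcnj11 was tested.

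Among the soluble proteins of subfamilies E and F, 1 of the 4 tested genes was called. Abce1, which recycles ribosomes, read 3.27, 3.10 and 3.19 in controls and 3.34, 3.32 and 3.21 on the CFD diet, which overlap, with a log2 fold change of 0.10 ± 0.11 (adjusted p = 0.487) that was -0.10 after scaling to the array median. Abcf1 and Abcf2 had -0.30 ± 0.11 and -0.24 ± 0.12 (adjusted p = 0.0594 and 0.139), and Abcf1 passed after scaling to the array median, with the mean of its probes and with trended moderation (adjusted p = 0.0278, 0.0305 and 0.0425). Abcf3 was called lower on its representing probe, at -0.43 ± 0.13 (adjusted p = 0.0311), while another probe was called higher, at 0.41 ± 0.11 (adjusted p over all probes = 0.0221). The Abcf3 call ended in 8 of 15 alternatives, among them without control 1 or 3 (adjusted p = 0.104 and 0.114), without CFD diet 1 or 3 (adjusted p = 0.0765 and 0.0933), with the replicate block (adjusted p = 0.0742) and with the mean of both probes, -0.01 (adjusted p = 0.949). Of 8 listed translation partners 4 fell and the other 4 were not called, beside 27.3% of all tested genes called lower. The largest fall was that of Hbs1l, a ribosome rescue factor, at -0.63 ± 0.13 (adjusted p = 0.00843).

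Abcg3, a rodent gene related to Abcg2, was dim and rose by 0.96 ± 0.24 (adjusted p = 0.0157). The call ended without control 3 (adjusted p = 0.0551), without CFD diet 3 (adjusted p = 0.0535), without the filter on dim probes (adjusted p = 0.0598) and after normexp background correction, which gave 0.41 (adjusted p = 0.0791). Abcg4, a sterol transporter of the brain, was above background on 1 CFD diet array and was not tested.

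Probes of the same gene mostly gave 1 call. Of the 20 genes with more than 1 tested probe, 4 had every tested probe called higher (Abca5, Abcc1, Abcc5 and Abcc9), 6 had every probe called lower (Abca2, Abca3, Abca6, Abcb10, Abcd3 and Abcg8) and 5 had none called. In 4 genes, among them Abca8b, Abcb1b and Abcf1, some probes were called and others not, and Abcf3 had opposed calls. In Abca5 2 of the probes, and in Abcc5 1, were above background on no control array, so they were tested only through the CFD diet. Another Abcc5 probe, above background on 2 control arrays, also passed only through the CFD diet. An Abcb10 probe, above background on 2 CFD diet arrays, passed only through the controls. The calls of all these probes add no support. Over the whole array 49.7% of tested probes were called.

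**Figure D4:**
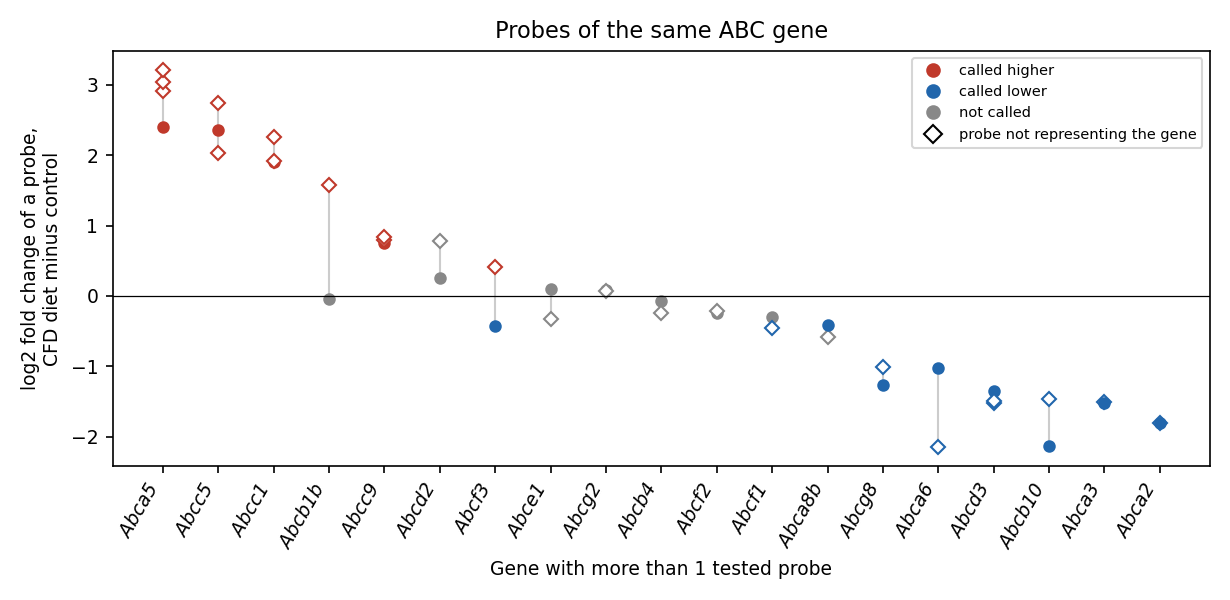
Log2 fold change of each tested probe, CFD diet minus control, for 19 of the 20 ABC genes with more than 1 tested probe, ordered by their highest probe; filled circles represent the gene, open diamonds are its other probes, and colours mark the call over all probes. Probes of Abca5, Abcc1, Abcc5, Abca2 and Abcd3 lie on 1 side of 0. Abcb1b, Abce1 and Abcf3 have probes on both sides of 0, with opposed calls only in Abcf3.

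The 4 excluded exporters lay on both sides of 0 as well, with Abcc4 higher at 3.11 ± 0.32, Abcb11 and Abcc3 lower at -1.41 ± 0.19 and -1.16 ± 0.21, and Abcc2 not called at -0.21 (adjusted p = 0.294).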

How the data were processed

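Liver RNA of 3 control and 3 CFD diet samples was hybridised to Agilent 1-colour mouse arrays. The deposited scanner files give each spot's intensity, background-subtracted by Agilent Feature Extraction, version 10.5.1.1 per the file headers and 10.7 per the submitters' processing notes, with probe positions on mm7. The deposited value table holds intensity on a linear scale with its scaling and centring unstated. Its column medians were 68.0, 61.5, 67.6, 72.7, 73.9 and 80.6, and by rank each column matched another replicate of its own group, so it served only as an alternative.

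Control spots and spots flagged as outliers were dropped, and the rest averaged within each probe. Log2 processed signals were centred on each array's 75th percentile. A probe was tested if well above background on all 3 arrays of a diet, and the brightest tested probe by its mean over the 6 arrays stood for the gene. The limma package (3.58.1, R 4.3.3) was fitted over all tested genes with lmFit and eBayes, with Benjamini-Hochberg adjustment and a threshold of 0.05, and was tested on simulated data. A bound ("at least") sets the bright diet's mean against, per array, the higher of the probe's own signal and the lowest signal among probes well above background.

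ABC genes keep the array's names, and other genes were updated through RefSeq. Probes of Abca12 carry other names on the array and lie outside the rule. Members and gene lists were chosen with earlier results of these data known. Values on every array are given for the main sterol, drug, peroxisomal, cobalamin and channel genes and for every other member called with a fold of at least 2, and from each list of related genes the called genes with the largest rise and the largest fall. Replicate numbers are slide numbers, and same-numbered samples deviated together with correlations of 0.17, -0.07 and -0.01. Some members and listed genes count in the totals but are not reported here by name or drawn. Protein sequences were not analysed here.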

Additional observations from a re-analysis of the deposited data

How the results depend on the processing

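Each result was recomputed under 15 alternatives. The number of ABC genes called higher, 9, ranged from 7 to 10. The number called lower, 15, was 9 without the filter on dim probes, where 27666 genes were tested in place of 15927, and 12 after quantile normalization and with the slide as a replicate block, which left 9 higher. Over all genes the number called lower, 4355, was 2461, 4213 and 3796 in these settings, in that order. Leaving out each array in turn gave 7 to 9 ABC genes higher and 10 to 14 lower. The lowest of these, 10, was without control 3, where 2770 of all 15927 tested genes were lower. The median log2 fold change, -0.233, moved to -0.437 after scaling to the array median and to -0.057 after quantile normalization, where the median over all genes was -0.312 and -0.034 next to -0.107, and lay between -0.272 and -0.200 without each array. Of all called genes 46.5% were higher, 33.6% after scaling to the median and 50% after quantile normalization, and of the called ABC genes 37.5%, 34.6% and 45.5%. Abcb1b, not called at -0.045, was called higher at 0.766 with the mean of its probes, whose values differ. Each slide held 1 array of each diet, and 3 slides are too few to tell whether the slide pairs the samples. The block, which leaves fewer residual degrees of freedom, gave 7325 calls over all genes where 8137 were made without it. It ended the calls of Abca8b, Abcd4 and Abcf3. The deposited value table gave the same call for all 34 genes. With 3 arrays per diet, the smallest called differences, those of Abca8b, Abcf3 and Abcd4, were lost in several settings. After normexp correction the dim probes of Abcb1a, Abca9 and Abcg3 were at 0.683, 0.610 and 0.405. That correction used an offset of 50, where the 75th percentiles of the arrays were 365 to 670, and the offset alone shrinks folds of dim probes. The part of background in these smaller values was not tested.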

Other observations

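Of 6 listed regulators of xenobiotic genes 1 rose and 4 fell on the CFD diet. Of 3 ABC genes that carry other symbols 1 was called. Over all tested genes 23.7% were called higher, 27.3% lower and 51.1% either way. Nfe2l2, which drives antioxidant and efflux genes such as Abcc1, had a log2 fold change of 0.45 ± 0.13 (limma adjusted p = 0.0285). Nr1i2, the pregnane X receptor, had the lowest fitted value, at -1.13 ± 0.14 (limma adjusted p = 0.00131), and Nr1i3 and Rxra were lower at -1.11 and -0.98. Cftr, the chloride channel of the ABC family and a marker of bile duct cells, was above background on all 3 CFD diet arrays and on no control array, and was at least 2.32-fold higher (limma adjusted p = 0.000459). Cftr was thus tested only through the diet in which it was high, and its call adds no support. The peptide transporter genes Tap1 and Tap2 had log2 fold changes of -0.21 ± 0.48 and -0.24 ± 0.24 and were not called. The part of cell composition in these values was not tested.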
